A study of Mus musculus with 7 samples.

Results

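The cells described here are the thyroid follicular cells (TFCs) found in dissociated mouse thyroid tissue, 90 cells of 578 tissue cells that had at least 1000 unique molecular identifiers (UMIs, which count captured transcripts). They came from 2 tissue samples, with 46 TFCs of 305 such cells in sample 1 and 44 of 273 in sample 2, and the series as a whole holds 2590 cells. Both tissue samples were thyroid of wild-type C57BL/6 mice that received no treatment, and their age is not given in the sources used here (the methods name female mice as the source of the organoids). The tissue was digested with collagenase and TrypLE, and single live cells (DAPI-negative) were sorted into 384-well plates and sequenced by SORT-seq, a plate-based method that counts the 3′ ends of transcripts. The other 5 samples of the series are organoids grown from such tissue and enter none of the comparisons below.

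TFCs form the wall of the thyroid follicle and make thyroid hormone. They secrete thyroglobulin (Tg) into the lumen, where its tyrosines are iodinated with hydrogen peroxide from the dual oxidases, and they later take Tg up again and digest it in lysosomes to release the hormone. Iodide enters through the sodium iodide symporter, the programme is set by the transcription factors Pax8, Nkx2-1, Foxe1 and Hhex, and thyroid stimulating hormone drives it through its receptor and cAMP.

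A cell was taken as a TFC when Tg made up at least 150 of 10000 of its UMIs and when its mean natural log value was under 0.5 for each of 3 marker lists, for endothelial cells (Plvap, Emcn, Kdr, Cdh5, Egfl7, Cldn5), immune cells (Ptprc, Tyrobp, Laptm5, Fcer1g) and mural cells of vessels (Rgs5, Acta2, Notch3, Tagln, Pdgfrb). The TFCs are thus chosen on measured values, and every difference between them and other tissue cells is a description without a test. TFCs made up 15.1% of the cells in sample 1 (95% exact Clopper-Pearson interval 11.3 to 19.6, which covers counting error only) and 16.1% in sample 2 (11.96 to 21.0), a mean of 15.6% ± 0.732 (SD, n = 2). Among the other cells with Tg under 150 per 10000, 119 and 116 were endothelial-like, 41 and 37 mural-like and 31 and 25 immune-like by the same lists. A further 68 and 51 stayed unnamed because they reached the limit of none or several of the lists, or of Tg beside a list. The 3 TFCs with the least Tg stood at 153, 155 and 169 per 10000, and the 3 cells just outside at 146, 143 and 138. Of 114 cells with enough Tg, 24 were left out by a list, 15 of them by the endothelial one. The samples shared 363 well barcodes, since each plate uses the same 384, and 3 of these held a TFC in both.

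Markers beside Tg were then examined. They were chosen with earlier results of these data known, so their levels are a description and not an independent check of identity. The summed level of Pax8, Iyd (iodotyrosine deiodinase, which recovers iodide) and Ager (the receptor for advanced glycation end products) was 51.6 and 32.7 UMIs per 10000 in TFCs of samples 1 and 2. It was 1.03 and 0.926 in endothelial-like cells, and no higher than 1.45 in mural-like and immune-like cells. From here on, levels of genes other than Tg are means over cells per 10000 UMIs other than Tg, since Tg alone held 17.0% and 10.7% of the UMIs of TFCs. Ager had at least 1 UMI in 91.3% and 86.4% of TFCs, at median depths of 1973 and 1616 UMIs, and in 22.7% and 23.3% of endothelial-like cells, at 3498 and 3699 UMIs. With each cell thinned to 1000 UMIs other than Tg, which left out 1 TFC of sample 1 and 4 of sample 2, the shares were 88.9% and 70.0% of TFCs against 9.24% and 4.31% of endothelial-like cells. Iyd had a UMI in 69.6% and 54.5% of TFCs, in 0 of 119 endothelial-like cells of sample 1, which allows a share of cells with a UMI of up to 2.52% and does not limit the share expressing the gene, and in 2 of 116 of sample 2.

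Markers of other cell types were then summed in the TFCs. The 6 endothelial markers summed to 2.07 and 1.59, against 74.0 and 74.2 in endothelial-like cells, and Egfl7 and Cldn5 were at 0. The immune markers summed to 0.275 and 0.170 with Tyrobp at 0, and the mural markers to 0.739 and 1.46 with Tagln at 0, but these 3 lists are part of the selection. Other lists played no part in it. The 7 measured C cell markers, led by the calcitonin gene Calca, summed to 7.48 and 3.26 in TFCs and to 4.09 and 1.15 in endothelial-like cells, and Calca had a UMI in 17.4% and 9.09% of TFCs against 25.2% and 18.1% of endothelial-like cells. Thinned to 1000 UMIs, the shares with Calca were 8.89% and 5.00% of TFCs and 8.403% and 5.17% of endothelial-like cells. Stromal markers summed to 3.33 and 2.33, parathyroid markers to 2.05 and 2.28, and erythroid markers to 6.52 and 1.92. The lung genes Sftpc and Scgb1a1 were at 0 in all TFCs, and skeletal muscle and adipocyte markers summed to at most 0.259.

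Tg set the TFCs apart by construction, and its spread among them was wide. In sample 1 it ran from 217 to 3934 UMIs per 10000 with a median of 1216 and quartiles of 1009 and 1936. In sample 2 it ran from 153 to 4056 with a median of 751 and quartiles of 381 and 1819. Sample 2 thus reached as high as sample 1 but held more cells of low Tg. Every endothelial-like, mural-like and immune-like cell also had Tg UMIs. The mean was 19.96 and 27.6 in endothelial-like cells, or 1.32% and 2.53% of the level in TFCs, and it was alike in mural-like cells (15.6 and 23.0) and immune-like cells (16.5 and 22.6). The range over these 3 classes was thus narrow, next to the level in TFCs. The unnamed cells averaged 203 and 241, and hold the cells with high Tg that also reached the limit of a list.

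**Figure D1:**
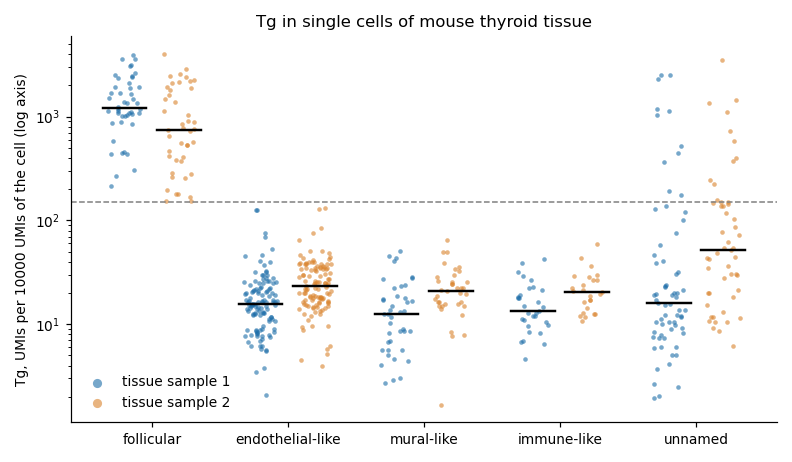
Tg in single cells of the 2 tissue samples by class, in UMIs per 10000 UMIs of the cell on a log axis. Points are cells, black bars are medians, and the dashed line is the limit of 150 used to choose TFCs (1 unnamed cell with no Tg is not drawn). TFC medians are 1216 and 751. Endothelial-like, mural-like and immune-like cells lie below the line because these classes take only cells under it.

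For each gene the difference between TFCs and other tissue cells was taken in each sample on the log2 scale after adding 1 to the mean level, which understates the change of low genes. Of 4482 genes other than Tg with a mean of at least 0.5, 22 were at least 4-fold higher in TFCs in both samples (0.491%) and 28 were at least 4-fold lower (0.625%), the latter with genes of the 3 lists among them. At 2-fold the counts were 133 higher (2.97%) and 222 lower (4.95%). The median gene differed by -0.07 in sample 1 and -0.04 in sample 2. The counts depend on the averaging, as sample 1 alone gave 40 higher and 48 lower, and summing UMIs over cells instead of averaging cells gave 2 higher. A sum gives deep cells more weight. The other tissue cells of sample 2 included unnamed cells of 268847 and 151110 UMIs, against a median of 3712 in that group. Both had Tg above the limit used to choose TFCs and were left out by a list. Their part in the summed count was not tested. The 20 genes with the largest difference in the sample where it was smaller were at least 4-fold higher in TFCs than in endothelial-like cells without exception, while 19 of 20 were so against mural-like and 17 of 20 against immune-like cells.

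Of the 14 genes listed for hormone synthesis, 6 reached the filter, and none of these was 2-fold lower in both samples. Iyd stood at 7.10 and 6.01 in TFCs against 0.22 and 0.38 in other tissue cells, a log2 difference of 2.73 and 2.34. Slc26a7, an anion transporter of the follicle, was at 2.78 and 3.34 against 0.21 and 0.33, more than 2-fold higher in both samples. The rest of the list was near the limit of detection in these shallow cells, in which even a gene without a UMI in any TFC could have one in up to 6.52% and 6.82% of them. The sodium iodide symporter Slc5a5 had a UMI in 3 of 46 and 3 of 44 TFCs, the dual oxidase Duox2 was at 0.64 and 0.92, and Duox1, Duoxa1, Slc26a4 and Kcne2 were each at 0 in one of the samples.

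The 5 thyroid transcription factors were measured at low levels. Foxe1, a forkhead factor, had a UMI in 47.8% and 40.9% of TFCs and stood at 5.03 and 3.02 in TFCs and 0.12 and 0.15 in other cells (log2 difference 2.43 and 1.80). Pax8, the paired-box factor that is also a marker here, stood at 1.77 and 3.03 against 0.22 and 0.40. Nkx2-1 stood at 1.67 and 1.82 against 0.13 and 0.07. Thus 3 of the 4 that reached the filter were more than 2-fold higher in both samples. The exception was the zinc finger factor Glis3, at 0.80 and 1.22 against 0.83 and 0.75, and Hhex stayed below the filter at 0.32 and 0.42. UMIs of Pax8 were seen in only 19.6% and 34.1% of TFCs, and those of Nkx2-1 in 13.0% and 25.0%, so at this depth a cell without them cannot be told from a cell that lacks the factor.

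Signalling through the receptor for thyroid stimulating hormone and the handling of the hormone were then compared. The receptor for thyroid stimulating hormone, Tshr, was at 1.46 and 2.14 in TFCs and 0.56 and 0.53 in other cells. After adding 1 to the means, none of the 7 tested genes of the Tshr and cAMP list was 2-fold higher or lower in both samples. The added 1 understates the change of low genes such as Tshr. Gnas, which encodes the stimulatory G protein, was at 9.74 and 8.57 in TFCs and 14.2 and 13.4 in other cells. The type 1 deiodinase Dio1, which turns thyroxine into its active form, was at 2.08 and 2.59 against 0.14 and 0.07, more than 2-fold higher in each sample. Dio2 was at 0 in all TFCs.

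Uptake and proteolysis of Tg was next examined. Of 11 tested genes of this list, 5 were 2-fold higher in both samples and 1 was lower, and the summed level was 58.3 and 51.5 against 23.5 and 23.4. Cpq, a carboxypeptidase thought to help release hormone from Tg, stood at 9.81 and 7.89 against 1.86 and 2.01, and the lysosomal membrane protein Lamp1 at 9.62 and 9.71 against 2.96 and 3.54. The cathepsins Ctsl and Ctsb and the asialoglycoprotein receptor Asgr1, which binds Tg, were the other 3 that were higher. The member that was lower was cathepsin S (Ctss), which is typical of immune cells, at 0.34 and 0.60 against 3.97 and 3.58.

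Genes of the endoplasmic reticulum (ER), where secreted proteins fold, formed the list with the most members at least 4-fold higher. Of 22 tested genes of the ER folding list, 5 were 4-fold and 11 were 2-fold higher in both samples, and none was 2-fold lower, with a median log2 difference of 1.51 and 1.06. Hspa5 (BiP), the main chaperone of the ER lumen, stood at 31.5 and 30.7 in TFCs against 4.28 and 4.61 in other cells. Hsp90b1 (GRP94) stood at 35.3 and 26.3 against 3.55 and 4.22. The lectin chaperone calreticulin (Calr) stood at 30.2 and 24.8 against 3.38 and 4.02. The disulfide isomerase Pdia3, which works with calreticulin, and Pdia6 and Creld2 belonged to the same group. By contrast Xbp1 and Atf4, transcription factors of the unfolded protein response, stood at 2.05 and 2.25 and at 0.79 and 0.53 in TFCs, and neither was 2-fold higher in both samples. Summed over the list, the level was 209 and 169 in TFCs and 39.2 and 42.6 in other tissue cells.

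Both tested metallothioneins, which bind zinc and copper, were among the leading genes, and Mt1 had the largest difference in the sample where it was smaller. Mt1 was at 23.9 and 23.1 in TFCs and 1.67 and 2.07 in other cells, and Mt2 at 10.1 and 11.9 against 0.67 and 0.87. Atp1b1, a beta subunit of ion pumps, was at 11.9 and 10.1 against 0.52 and 0.68. Among potassium channels, Kcnk1 and Kcnh3 were also 4-fold higher, and the gap junction gene Gjb1 (connexin 32) was at 6.33 and 5.43 against 0.30 and 0.25. Cell surface genes of epithelia completed the list. The kidney and thyroid cadherin Cdh16 stood at 8.38 and 5.82 against 0.22 and 0.34, the folate receptor Folr1 at 6.89 and 5.50 against 0.29 and 0.15, and the laminin-binding Bcam at 25.8 and 18.3 against 3.91 and 3.53. The carboxylesterase Ces1d and Chchd10, a protein of the mitochondrial intermembrane space, were the remaining members. Of 11 tested genes for epithelial junctions and keratins, 4 were 2-fold higher, with Epcam at 4.60 and 3.61 against 0.31 and 0.30.

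A pair of leading genes is better known from the lung, where Nkx2-1 is also active. Ager, which marks the flat cells of the alveolus, stood at 42.7 against 2.38 in sample 1 (log2 difference 3.69) and at 23.7 against 2.42 in sample 2 (2.85). Napsa, an aspartic protease that processes a surfactant protein, was at 8.89 and 7.80 against 0.86 and 0.52. The surfactant genes themselves were not seen at such levels. Sftpc and Sftpa1 were at 0 in TFCs of both samples, and Sftpb and Sftpd reached at most 0.63. Of the lung-type list, 3 genes reached the filter, and Abca3 was the one that did not differ 2-fold.

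**Figure D2:**
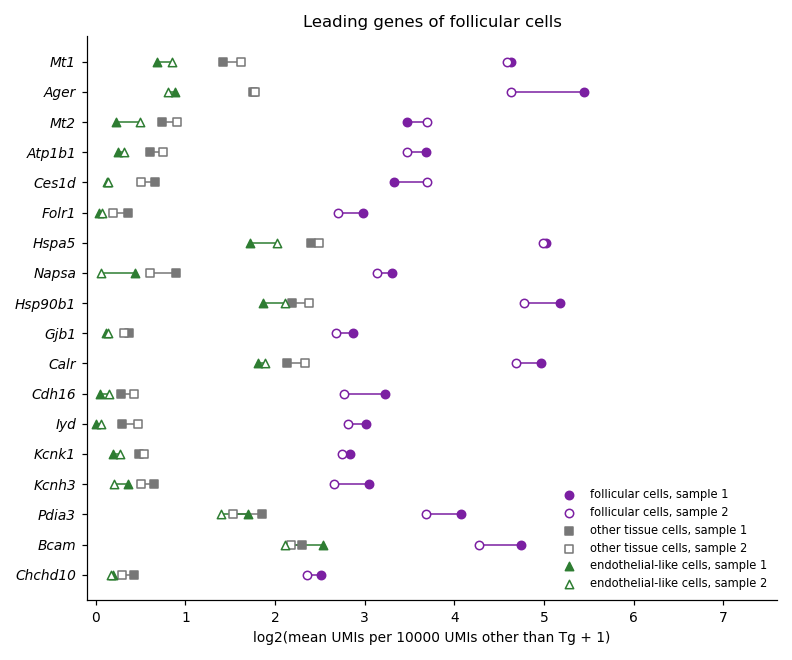
Mean level of 18 of the 20 leading genes in TFCs (circles), other tissue cells (squares) and endothelial-like cells (triangles), as log2 of the mean UMIs per 10000 UMIs other than Tg plus 1. Filled symbols are sample 1, open symbols sample 2, and lines join the samples. In both samples each gene lies higher in TFCs, from Ager at 42.7 and 23.7 to Chchd10 at 4.70 and 4.14.

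The stretches upstream of the start sites of Iyd and Ager are shown because these genes are both markers and leading genes. They were searched for CTCAAG and CAAGTG on both strands, core letters of sites bound by Nkx2-1 type factors, and a match in these letters is a description and not a site. The windows hold the 250 bases before the RefSeq start site on build GRCm38.p6, and capitals mark a match.
Iyd, chr10:3540024-3540273, plus strand: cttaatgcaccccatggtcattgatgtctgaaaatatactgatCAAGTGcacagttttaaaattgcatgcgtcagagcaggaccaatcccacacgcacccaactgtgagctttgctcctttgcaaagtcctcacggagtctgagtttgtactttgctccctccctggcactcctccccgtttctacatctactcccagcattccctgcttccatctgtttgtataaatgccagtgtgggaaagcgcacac
Ager, chr17:34597600-34597849, plus strand: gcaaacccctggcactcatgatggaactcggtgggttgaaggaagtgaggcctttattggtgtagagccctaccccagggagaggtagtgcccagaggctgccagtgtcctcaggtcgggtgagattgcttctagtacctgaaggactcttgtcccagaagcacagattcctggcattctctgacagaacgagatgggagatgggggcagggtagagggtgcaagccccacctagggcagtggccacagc
The window of Iyd held 1 CAAGTG and that of Ager held neither word. Windows were at hand for 13 of the 20 leading genes, and 4 of their 16 windows had a match (25%), against 22.6% of all 32851 windows.

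Apart from the lists used in the selection, the genes lowest in TFCs against other cells included genes of vessels and blood. Flt1, the vascular growth factor receptor 1, was at 1.37 and 1.56 in TFCs and 21.5 and 22.1 in other cells, and Igfbp7 at 2.33 and 1.86 against 27.0 and 32.9. Nrp1, Plpp1, Igfbp3, Cyyr1 and Ly6a, all far higher in endothelial-like cells, and the globins Hbb-bs and Hba-a1 were the next. High globin levels lay in the unnamed cells, in which the erythroid markers summed to 302 and 161. TFCs, at 6.52 and 1.92, stood no lower than endothelial-like (5.51 and 1.10), mural-like (3.43 and 1.02) or immune-like cells (5.62 and 0.754). Antigen presentation by MHC class II was low as well, with 3 of 4 tested genes at least 2-fold lower and Cd74, the invariant chain, at 7.99 and 4.31 against 21.8 and 18.9. Immediate early and stress genes, often induced by dissociation, were not raised. Of 15 tested, 5 were 2-fold lower and none 2-fold higher, and Jun stood at 0.51 and 0.72 against 2.21 and 2.51. Of the 78 tested ribosomal protein genes none differed 2-fold in both samples (median log2 difference 0.37 and 0.33). No UMI of Mki67, the proliferation marker, was seen in the 90 TFCs.

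The balance of mitochondrial and nuclear transcripts also set the TFCs apart. Mitochondrially encoded transcripts made up a median of 10.9% of the UMIs other than Tg in sample 1 (range over cells 1.40 to 33.6) and 7.26% in sample 2 (0.649 to 42.0). The medians of endothelial-like cells were 1.16% and 1.29%, of mural-like cells 1.48% and 1.77%, and of immune-like cells 1.77% and 2.03%. Of 8 tested mitochondrially encoded genes of the respiratory chain 7 were more than 2-fold higher in both samples, for example mt-Cytb at 181 and 120 against 31.4 and 33.8. Malat1, a nuclear long noncoding RNA, went the other way, at 10.5 and 22.7 against 52.0 and 52.1, and the predicted gene Gm10801 stood at 20.9 and 27.0 against 218 and 175. TFCs also had fewer UMIs per cell than endothelial-like cells, with medians of 1973 and 1616 against 3498 and 3699. A high mitochondrial share, a low level of a nuclear RNA and a low depth are values by which the quality of single cells is often judged, and their part in the differences above was not tested.

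**Figure D3:**
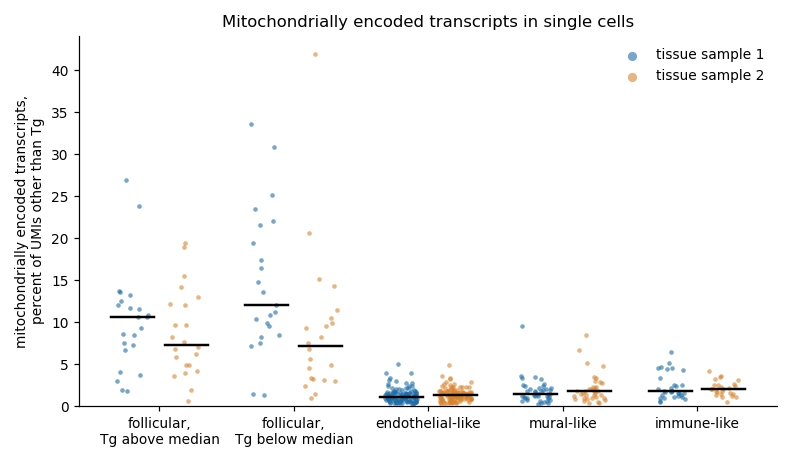
Mitochondrially encoded transcripts as percent of a cell's UMIs other than Tg, for TFCs with Tg above and below the sample median and for 3 other classes. Points are cells and black bars are medians. The TFC medians lie between 7.15% and 12.1%, and those of the other classes between 1.16% and 2.03%.

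Inside the TFCs, cells with Tg above the sample median (Tg-high) were compared with those below it (Tg-low), 23 against 23 in sample 1 and 22 against 22 in sample 2. The question was which other genes go with a high share of Tg. Tg ran from 1241 to 3934 above and 217 to 1191 below in sample 1, and from 760 to 4056 above and 153 to 743 below in sample 2. The Tg-high and Tg-low groups are parts of a range and not types, as 18 of 46 and 8 of 44 cells lay within 1.25-fold of the median. Genes were tested with limma on the log2 means of the 4 groups with the sample as a block, Tg was left out of the totals and of the test, with p values adjusted after Benjamini and Hochberg over all genes tested. Of 4038 genes, 8 rose (0.198%) and 1 fell (0.0248%) at an adjusted p under 0.05, and 348 had an unadjusted p under 0.05. The fit has 1 residual degree of freedom for each gene and takes its spread from a trend over all tested genes (4038 total degrees of freedom). Each SE given below is thus not the spread of that gene between the samples. Without the replicate block no gene passed (272 had an unadjusted p under 0.05), and none passed after thinning each cell to 1000 UMIs. With Tg kept in the totals, which lowers the median gene by 0.11 on the log2 scale, no gene rose and 1 fell.

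Of the 8 genes that rose with Tg, Cpq and Ctsl belong to the uptake and proteolysis list and Ager to the lung-type list. Cpq was at 16.2 above and 3.43 below the median in sample 1, and at 13.6 and 2.16 in sample 2 (log2 difference 2.08, SE 0.41, limma adjusted p = 0.000507). It was detected in 95.7% against 39.1% of the cells in sample 1 and in 72.7% against 27.3% in sample 2. Ager was at 62.7 and 22.7 in sample 1 and at 39.1 and 8.32 in sample 2 (log2 1.76, SE 0.34, limma adjusted p = 0.000507). Ctsl, the lysosomal protease cathepsin L, was at 11.4 and 2.43 and at 8.93 and 2.62 (log2 1.65, SE 0.42, limma adjusted p = 0.0334). Each of these genes thus stood higher in both Tg-high groups than in either Tg-low group.

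The other 5 genes that rose are on none of the lists. Rpn2, a subunit of the complex that attaches sugars to new proteins in the ER, was at 8.80 and 1.99 in sample 1 and 8.19 and 1.08 in sample 2 (log2 1.93, SE 0.42, limma adjusted p = 0.00532). Nucb1, a calcium-binding Golgi protein, was at 8.31 and 3.20 and at 7.03 and 0.27 (1.90, SE 0.42, limma adjusted p = 0.00602). Surf4, a cargo receptor that carries secreted proteins out of the ER, was at 3.86 and 1.02 and at 8.06 and 0.90 (1.76, SE 0.43, limma adjusted p = 0.0260). Itm2c, an integral membrane protein, was at 11.7 and 2.33 and at 11.2 and 3.50 (1.69, SE 0.41, limma adjusted p = 0.0260), and Gjb1 was at 8.499 and 4.15 and at 9.87 and 0.98 (1.67, SE 0.42, limma adjusted p = 0.0334). All 8 log2 differences stayed above 0 under every alternative in which the gene was tested, but the call did not always hold, with Cpq past the threshold under 13 of 17, Ager under 11 and Nucb1 under 10. The remaining genes passed under 6 or 7. The annotation places exons of other genes on the opposite strand over part of Cpq, Rpn2, Surf4 and Ctsl, and of the falling gene Gigyf2. The same holds for Tg and for the leading genes Atp1b1, Bcam, Chchd10, Hsp90b1, Kcnh3, Kcnk1, Mt2, Napsa and Pdia3. Reads of these pairs could be mixed, as the strand setting of the counts is not given in the sources used here.

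The 1 gene that fell was Gigyf2, which encodes a translational repressor, at 0.81 above and 15.0 below the median in sample 1 and 1.14 and 4.83 in sample 2 (log2 -2.30, SE 0.42, limma adjusted p = 0.000278). A single cell held 80.3% of its level in TFCs of sample 1 and another 70.2% in sample 2. Its level also follows the barcode of the well in the organoid plates, with a correlation of 0.512 between cells of different plates that share a barcode. Beyond the genes that passed, Tmbim6 and Ppib came next among the rises (limma adjusted p = 0.0678 and 0.0832). Among the falls Limch1 came next (limma adjusted p = 0.0615), followed by Lrrc46, Snx7, Gm37045, Dab1, Atp5d, Daglb, Aldh1a2 and Wapl at 0.101 to 0.167, and none of these passed. Of these falls all but Limch1 and Atp5d also follow the well barcode (a correlation above 0.05), with Lrrc46, Snx7, Gm37045 and Aldh1a2 at 0.35 to 0.47. Of all 19498 genes with UMIs in at least 20 of the organoid cells, 4174 were above this limit. Leaving such genes out, which removes Gigyf2 itself, gave 9 rises and 1 fall of another gene, with 7 calls shared. The part of the barcode in these values was not tested further.

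**Figure D4:**
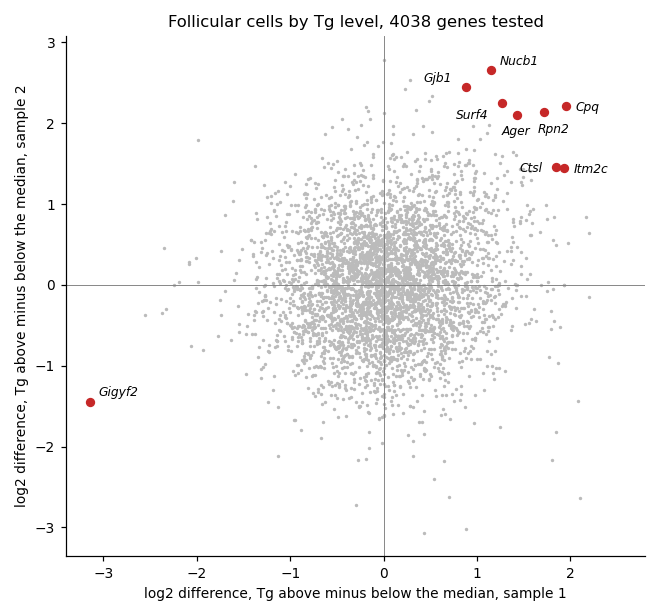
Log2 difference of the mean level between TFCs with Tg above and below the sample median, sample 1 on the horizontal and sample 2 on the vertical axis, for the 4038 genes tested (grey). Red points are the 9 genes past the limma threshold, of which 8 lie high in both samples and Gigyf2 lies low in both.

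Gene lists were read against the 27.1% of all tested genes that were higher in the Tg-high cells of both samples. Of 10 tested genes for uptake and proteolysis of Tg, 2 rose (Cpq and Ctsl) and 6 were higher in both samples, and the summed level of the list was 81.3 above and 35.4 below in sample 1 and 73.0 and 30.0 in sample 2. Among its members that did not pass, the sphingolipid activator Psap stood at 13.1 and 4.47 and at 16.1 and 6.09, and cathepsin B (Ctsb) at 14.9 and 7.05 and at 12.2 and 4.04. Of 22 ER folding genes none passed, but 17 were higher in both samples, with a summed level of 237 and 180 in sample 1 and 229 and 110 in sample 2. Hspa5 was at 37.6 and 25.4 and at 44.5 and 16.9 (limma adjusted p = 0.26). Of 5 tested MHC class I genes 4 were higher in both samples, and of the 7 tested Tshr and cAMP genes 4, and none of these passed.

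Genes of hormone synthesis and the transcription factors gave no such call. Of 6 synthesis genes besides Tg 4 were higher in both samples and none passed. Iyd was at 10.9 and 3.29 in sample 1 and at 7.99 and 4.02 in sample 2 (limma adjusted p = 0.25). Of the 4 tested transcription factors 1 was higher in both samples, Foxe1, at 5.57 and 4.49 and at 3.81 and 2.22. Pax8 pointed in opposite directions, at 1.01 and 2.52 in sample 1 and 3.70 and 2.37 in sample 2, and so did Nkx2-1 and both metallothioneins. None of the 8 mitochondrially encoded genes was higher in the Tg-high cells of both samples, and 5 were lower in both, against 25.4% of all tested genes. Their summed level was 502 above and 804 below in sample 1 and 412 and 459 in sample 2, and none passed.

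When the TFCs of each sample were divided by Tg into 4 groups of 11 or 12 cells, without a test, the summed level of the uptake and proteolysis list increased at each step, from 33.8 through 38.8 and 57.3 to 107 in sample 1 and from 25.7 through 34.2 and 69.3 to 76.6 in sample 2. Ager also increased at each step, from 21.3 to 79.0 and from 8.28 to 42.7. Cpq went from 2.07 to 18.0 and from 3.05 to 16.7, with its lowest value in the second group of sample 2. The summed mitochondrial list was highest in the group of lowest Tg in both samples, at 957 and 556, against 451 and 386 in the group of highest Tg.

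**Figure D5:**
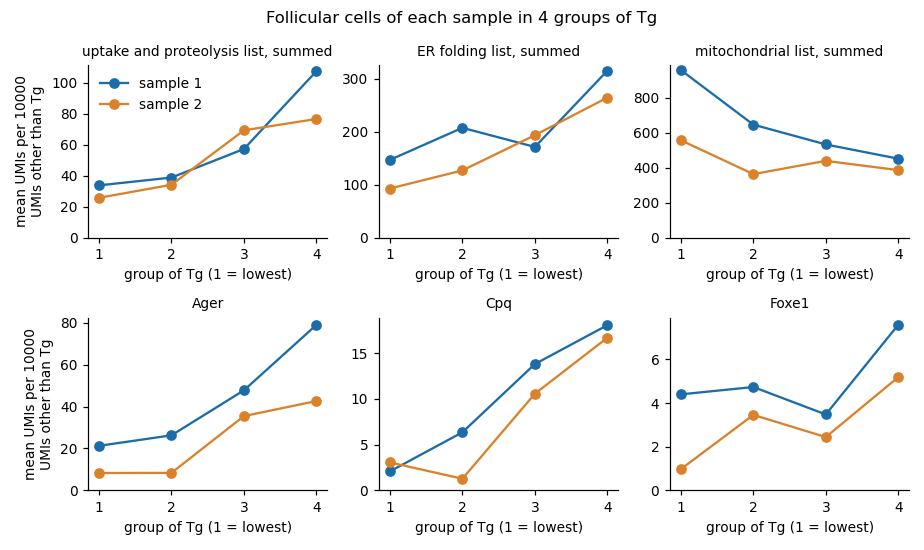
Mean level per 10000 UMIs other than Tg in 4 groups of Tg (1 is the lowest) of the TFCs of sample 1 (blue) and sample 2 (orange), for 3 summed gene lists and 3 genes. The uptake and proteolysis list and Ager increase at every step in both samples, and the mitochondrial list is highest in the group of lowest Tg (957 and 556).

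Quality and markers of other cell types were compared between Tg-high and Tg-low cells. The median number of UMIs other than Tg was 2054 above and 1667 below in sample 1 and 1441 and 1419 in sample 2. The median mitochondrial share was 10.6% and 12.1% in sample 1 and 7.30% and 7.15% in sample 2. Malat1 was lower above the median in both samples, at 7.36 and 13.7 and at 18.8 and 26.6, and had no adjusted p under the threshold. Endothelial markers summed to 1.68 above and 2.46 below in sample 1 and 1.10 and 2.08 in sample 2, with Egfl7 and Cldn5 at 0, and immune markers to at most 0.423 with Tyrobp at 0. Mural markers summed to 0.365 and 1.11 and to 1.42 and 1.497, with Tagln at 0. For each of these 3 lists taken alone, the median cell had no UMI in each of the 4 groups. C cell markers summed to 4.82 above and 10.1 below in sample 1 and 3.56 and 2.96 in sample 2, and the difference in Calca was -2.33 and -0.30 on the log2 scale (limma adjusted p = 0.167). Stromal markers summed to 2.42 and 4.24 in sample 1 and 2.89 and 1.77 in sample 2, and parathyroid markers to 2.61 and 1.49 and to 2.03 and 2.54, so that all 3 lists pointed in opposite directions in the samples. Airway, skeletal muscle and adipocyte markers summed to at most 0.687 in any of the 4 groups, with Sftpc and Scgb1a1 at 0. Erythroid markers summed to 8.38 above and 4.66 below in sample 1 and 0.843 and 3.00 in sample 2. The share of UMIs from genes that follow the well barcode was 33.8% and 33.0% in sample 1 and 34.8% and 36.4% in sample 2. The part of these values in the differences between Tg-high and Tg-low cells was not tested.

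The genes whose level was most like that of Tg over single TFCs were also found, among 726 genes with a mean of at least 2 and by Spearman correlation over the 46 and 44 cells. They were App (the amyloid precursor protein, 0.56 in sample 1 and 0.61 in sample 2), Ager (0.64 and 0.56), Tmbim6, a membrane protein of the ER (0.54 and 0.55), Cpq (0.73 and 0.54) and Bcam (0.53 and 0.54), followed by Ctsl, Itm2c and the tetraspanin Cd9. The median gene was at 0.05 and 0.03. The lowest were Zbtb20 (-0.39 and -0.30) and Gm10801 (-0.29 and -0.27). These correlations share the cells and depth of 1 library each and use the same cells as the Tg-high and Tg-low groups, and Tg itself correlated with the other UMIs of a cell at 0.21 and 0.11.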

How the data were processed

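Single-cell libraries were made by SORT-seq, which follows CEL-seq2, in 384-well plates. The deposited table, with 30879 genes in rows and 2590 cells in columns, holds the natural log of 1 plus UMIs per 10000 as the authors scaled them, and the submitters' processing notes name Trim Galore 0.4.3, STAR 2.5.3a, Seurat and build GRCm38 (mm10). The cell filter and the strand setting are not given in the sources used here. After the log was undone, dividing each cell by its smallest value gave whole UMIs for 100% of values (tolerance 0.01). The depth behind a TFC was 1004 to 15122 UMIs.

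The members and gene lists were chosen with earlier results of these data known. The 2 samples are stated to be biological replicates, though the labels name no separate animals, and p values rest on a spread pooled over all genes, as each gene leaves 1 residual degree of freedom. Levels were averaged over cells per 10000 UMIs other than Tg, log2-transformed with a pseudocount of 1, and filtered at a mean of 0.5. Tg-high and Tg-low cells were tested in limma (version 3.58.1, R 4.3.3) with a variance trend and the sample as a block, because both groups come from the same sample, at a threshold of 0.05, checked on simulated data. Named genes were the 20 with the largest and 10 with the smallest difference from other tissue cells in the weaker sample, up to 10 in each direction between Tg-high and Tg-low cells (filled with the smallest p where fewer passed), the genes most like Tg, and members of the lists. No doublet caller was run. The selection leaves out cells at a mean of 0.5 or more for the endothelial, immune or mural list, and 25 TFCs had a highest list mean of 0.3 or more. Mixtures with cell types outside these lists were not left out. Gene overlaps come from GENCODE vM21 on GRCm38 and promoters from RefSeq. Barcode correlations used 1457 organoid cells and the deposited list of 384 barcodes. Some members of the lists and of the leading genes are not reported here.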

Additional observations from a re-analysis of the deposited data

Results flagged for a closer look

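Below the depth limit of 1000 UMIs, 17 cells of sample 1 and 17 of sample 2 met every other condition for a TFC. They are of interest because no comparison uses them, of 78 and 91 tissue cells below the limit. Their median depth was 664 and 662 UMIs and their median Tg 342 and 252 per 10000, above the 19.96 and 27.6 of endothelial-like cells.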

How the results depend on the processing

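The share of TFCs among tissue cells, 15.6%, was 17.5% with a limit of 500 UMIs and 9.17% with 2000, 13.4% with a Tg limit of 300 and 17.4% with 75, and 11.2% with list means under 0.3. The count of genes 4-fold higher in TFCs, 22, was 13 at 500 UMIs, 36 at 2000 UMIs, 2 with UMIs summed over cells and 61 with a pseudocount of 0.25. The count of genes 4-fold lower, 28, was 43 at 2000 UMIs and 143 with a pseudocount of 0.25. With 1 sample left out the counts were 28 and 40 higher and 36 and 48 lower, the larger ones without sample 2. Between Tg-high and Tg-low cells, limma calls (8 higher and 1 lower) became 39 and 11 at 500 UMIs and also with a Tg limit of 75, 0 and 2 at 2000 UMIs, 4 and 4 with a Tg limit of 300, 5 and 0 with list means under 0.3, 1 and 0 with summed UMIs, 0 and 1 with Tg kept in the totals, 2 and 1 with a filter at 0.1, 4 and 1 with no filter, 0 and 0 when thinned, 2 and 1 without the 2 deepest TFCs of each sample, 27 and 3 for the highest against the lowest of 3 groups of Tg, and 3 and 1 with a prior variance without trend. The cause of these shifts was not tested. Of the 9 calls, 8 were shared with the limit of 500 UMIs, 9 with the Tg limit of 75 and none with 2000 UMIs. Tg-high and Tg-low groups are paired by sample, and with no replicate block 0 genes were higher and 0 lower. Leaving out genes that follow the well barcode, Gigyf2 among them, an alternative chosen after seeing the data, gave 10 calls, 7 of them shared. With 1 sample left this comparison has no test. At 500 UMIs Limch1 (0.13), Snx7 (0.32), Aldh1a2 (0.91) and Wapl (0.063), none of which had passed, changed sign, and so did Aldh1a2 with the Tg limit of 75 (0.28). Over single genes, 76 of 367 values of this comparison lost a call, 14 gained one and 5 changed sign. The other 272 include genes without a call to lose. They also include values with 1 sample left out, which carry no test and count as kept by construction. Among the called genes, passes ran from 13 of 17 alternatives for Cpq to 6 of 17 for Surf4, Itm2c and Ctsl and 6 of 16 for Gjb1. Means of 22 or 23 Tg-high or Tg-low cells, at median depths of 1467 to 2924 UMIs, limit what can be seen. Against other tissue cells the means are over 44 and 46 TFCs. Genes under 1 per 10000 rest on a few UMIs.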

Other observations

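Among gene groups not described above, 2 of the 12 tested genes for peroxide and selenium defence were more than 2-fold higher in TFCs than in other tissue cells in both samples. Of all 4482 genes in this comparison, 2.97% were 2-fold higher and 4.95% were 2-fold lower in both samples. The 2 defence genes were superoxide dismutase Sod1, at 4.52 and 5.16 against 1.35 and 1.49, and peroxiredoxin Prdx5, at 2.51 and 2.52 against 0.49 and 0.41. The selenium carrier Selenop was lower, at 0.54 and 0 against 2.73 and 3.03. Of 12 basement membrane genes 2 were 2-fold lower, the collagen IV chains Col4a1 (2.34 and 1.41 against 12.8 and 14.9) and Col4a2, and none was 2-fold higher in both samples. None of 7 growth factor and vessel genes passed 2-fold in both samples after adding 1 to the means. Vegfa, the vascular growth factor, stood at 1.62 and 1.18 against 0.16 and 0.16, a difference that the added 1 understates. These comparisons carry no test, since the TFCs were chosen on the same cells.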
